A study of Mus musculus with 2 samples.

Results

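The 9 genes described here encode transcription factors that mark mesenchyme in the embryo, namely the homeobox genes Prrx1, Prrx2, Msx1, Msx2, Six2 and Meox1 and the basic helix-loop-helix (bHLH) genes Twist1, Twist2 and Scx. They were chosen by symbol, and all 9 had a row among 21225 gene rows, of which 20239 carried a symbol. The choice was made with the difference between the arrays known for several of them, so that their values are a description of these 2 arrays and no evidence on their own. At E11.5, right atria of mouse embryos were compared on 1 array for Shox2-/- and 1 array for wildtype, each hybridized with RNA pooled from 6 right atria out of 2 pregnancies. The Shox2-/- embryos were homozygous for a knockout of Shox2, both genotypes were in the CD-1 outbred background, and the dissected atria included the sinus venosus myocardium and the venous valves. All values are log2 expression values, and a difference always means Shox2-/- minus wildtype for 1 gene. With 1 pool per genotype there was no replicate, so no difference has an error or a test.

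Mesenchyme is the loosely packed tissue from which connective tissue, cartilage, tendon and parts of the heart valves form. Homeobox factors and bHLH factors such as those studied here bind DNA through conserved domains and keep mesenchymal cells dividing or guide them towards bone, tendon, muscle or kidney. In the heart, mesenchyme arises largely when endocardial cells leave their epithelium and fill the cushions, under the influence of Bmp signals, and further mesenchymal cells enter from the neural crest, the epicardium and the dorsal mesocardium. Prrx1 and Prrx2 belong to the same paired-related class as Shox2 itself.

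On the arrays as a whole, the medians over all genes were 7.50 for Shox2-/- and 7.49 for wildtype, and the difference depended slightly on the level, with a lowess trend that ran between -0.085 and 0.11. As a measure of background, 1296 genes of olfactory or vomeronasal receptors were taken. Their 95th percentile, called the receptor level here, was 6.97 on the Shox2-/- array and 6.77 on the wildtype array. The targeted gene Shox2 (Entrez gene 20429) had a value of 7.48 in Shox2-/- right atria and 8.43 in wildtype right atria, a difference of -0.95. The pools also differed in their make-up. Xist, the RNA of the inactive X chromosome, was at 6.60 in the Shox2-/- pool and 10.13 in the wildtype pool. The Shox2-/- value of Xist lies below the receptor level of that array. The liver transcript Alb was at 9.43 in the Shox2-/- pool and 10.93 in the wildtype pool. The part of these differences in the values given here was not tested. With 1 pool per genotype, the sex make-up that Xist reflects and the genotype cannot be told apart. In atrial tissue the muscle genes Myl7 (12.80 in Shox2-/- and 12.75 in wildtype) and Tnnt2 (11.99 in Shox2-/- and 11.98 in wildtype) were far above the receptor level.

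Every one of the 9 mesenchymal factors had the higher value on the Shox2-/- array. The differences ran between 0.18 for Meox1 and 0.80 for Prrx1 with a median of 0.35, against a median of 0.02 over all genes. The receptor level was itself higher on the Shox2-/- array, at 6.97 against 6.77 in wildtype. Above it, Meox1 lay 0.36 in Shox2-/- and 0.37 in wildtype, Twist2 1.76 and 1.74, and Prrx2 2.32 and 2.28. Prrx1 lay 2.39 above it in Shox2-/- and 1.79 in wildtype. At a size threshold of 0.35, which the study used for higher expression together with a P that could not be computed here, 5 of the 9 were counted as higher, namely Prrx1, Msx2, Six2, Twist1 and Scx. Over all genes 240 of 21225, or 1.13%, were at or above this threshold, and 54.9% had a difference above 0. None of the 9 was at or below -0.4, the threshold for lower expression, which 1.78% of all genes passed. Since the choice of genes used this comparison, nothing is read from these shares. In pooled tissue more cells of a type and more RNA per cell cannot be told apart.

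**Figure D1:**
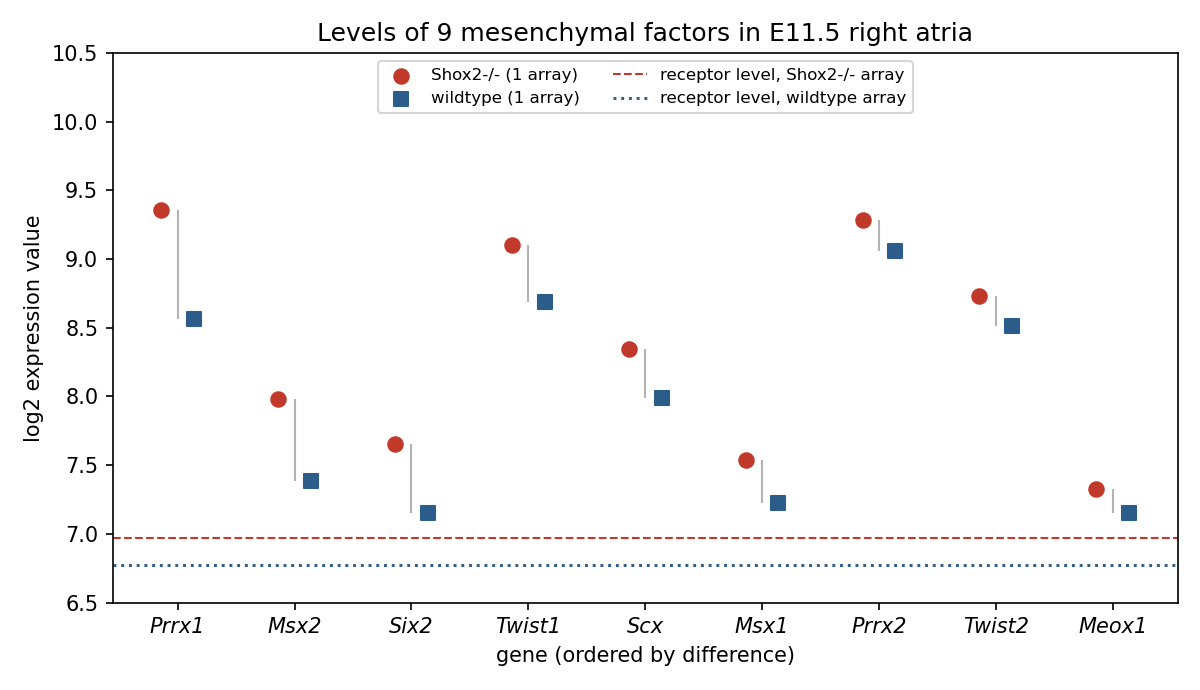
Log2 expression value (vertical axis) of the 9 genes on the Shox2-/- array (circles) and the wildtype array (squares), 1 array each and joined by a line, with the receptor level of each array as a dashed and a dotted line. All 9 genes lie above both lines, and the gap between circle and square is widest for Prrx1 (9.36 in Shox2-/- and 8.56 in wildtype).

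Prrx1 (Entrez gene 18933) drives the growth of limb and facial mesenchyme and is also expressed in the cushions and great vessels of the heart. Its value was 9.36 in Shox2-/- right atria and 8.56 in wildtype right atria. The difference of 0.80 corresponds to a 1.74-fold signal and was the 5th highest among all genes, behind the connexin gene Gjb2 (1.07), the chemokine gene Cxcl14 (1.07), Gabrp (0.93), which encodes a subunit of a GABA receptor, and 2610528A11Rik (0.83). When all genes were divided into 10 bins by mean level, 10 of the 2122 genes in the bin of Prrx1 were at or above 0.35, or 0.471%, and Prrx1 was the highest of them. Its paralog Prrx2 (Entrez gene 20204), which acts together with Prrx1 in the skeleton and the large arteries, was at 9.29 in Shox2-/- and 9.06 in wildtype right atria. The Prrx2 difference of 0.23 was not past the threshold and was smaller than that of Prrx1 by 0.57. Both genes were clear of background, with no receptor gene reaching their value on either array.

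The DNA in front of both genes is shown as a description, because the genes are close relatives. Whether it has a part in their differences was not tested. The letters are the 250 bases before the annotated start, from RefSeq in the build GRCm38.p6, with each AATT in capitals. AATT is a palindrome, so it reads the same on both strands, and it is the core that the SHOX2-binding probes of the study carried. Those probes came from an intron of ISL1. A mutated probe that still held another AATT was not bound, and the study proposes that activation of ISL1 requires the sequences of both bound probes. The Prrx1 window lies on the minus strand at chr1:163313651-163313900 and the Prrx2 window on the plus strand at chr2:30845117-30845366.
Prrx1: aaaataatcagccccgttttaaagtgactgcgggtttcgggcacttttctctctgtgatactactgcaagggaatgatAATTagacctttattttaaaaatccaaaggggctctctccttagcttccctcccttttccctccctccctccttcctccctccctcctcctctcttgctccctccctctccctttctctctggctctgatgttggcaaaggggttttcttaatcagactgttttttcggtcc
Prrx2: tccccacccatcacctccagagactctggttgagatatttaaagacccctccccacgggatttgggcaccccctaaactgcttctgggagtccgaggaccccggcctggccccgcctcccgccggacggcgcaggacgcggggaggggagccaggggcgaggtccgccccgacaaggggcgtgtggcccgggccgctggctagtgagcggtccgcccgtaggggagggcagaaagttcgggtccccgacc
The Prrx1 window held 1 AATT, which starts 172 bases before the gene's start and is part of the longer palindrome TAATTA. The Prrx2 window held neither, had a GC content of 70%, against 47.6% for Prrx1, and contained 21 CG pairs, against 4 for Prrx1. Of 32841 promoter windows of this length in the table, 47.1% held AATT and 4.84% held TAATTA. A match describes the letters and is not a binding site.

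Msx2 (Entrez gene 17702) and Msx1 (Entrez gene 17701) are homeobox repressors that respond to Bmp signals and act in cushion formation, teeth and skull. Msx2 was at 7.98 in Shox2-/- and 7.38 in wildtype right atria. Its difference of 0.60, a 1.51-fold signal, was the second largest of the 9 and stood at rank 23 of all genes. Msx1 was at 7.54 in Shox2-/- and 7.22 in wildtype right atria. The Msx1 difference of 0.32 lay just under the threshold and was 0.28 smaller than that of Msx2. Both genes were nearer to background than the Prrx genes, and 3 receptor genes on the Shox2-/- array and 7 on the wildtype array reached the value of Msx2. That of Msx1 was reached by 8 receptor genes on the Shox2-/- array and 9 on the wildtype array. The remaining gene of the family, Msx3, which is known from the dorsal neural tube, was at 7.28 in Shox2-/- and 7.15 in wildtype right atria, a difference of 0.12.

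The windows of Msx2 on the minus strand at chr13:53472781-53473030 and of Msx1 on the minus strand at chr5:37824586-37824835 are given as a description too, again with AATT in capitals. Their part in the differences was likewise not tested.
Msx2: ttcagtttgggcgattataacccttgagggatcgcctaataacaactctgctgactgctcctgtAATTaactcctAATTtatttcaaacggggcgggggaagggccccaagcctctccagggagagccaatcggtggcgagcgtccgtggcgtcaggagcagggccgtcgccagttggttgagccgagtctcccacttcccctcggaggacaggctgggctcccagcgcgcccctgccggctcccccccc
Msx1: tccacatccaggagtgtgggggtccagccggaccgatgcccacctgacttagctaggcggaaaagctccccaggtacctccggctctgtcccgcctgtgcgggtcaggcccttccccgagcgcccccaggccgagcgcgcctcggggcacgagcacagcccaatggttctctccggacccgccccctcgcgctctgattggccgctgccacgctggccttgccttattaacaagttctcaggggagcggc
The Msx2 window held 2 AATT, starting 186 and 175 bases before the gene's start, and the first of them lies in a TAATTA. The Msx1 window held none. In all, 7 of the 9 genes had a window in the table, 5 of these 7 held AATT, and Prrx1 and Msx2 were the 2 that held TAATTA. The other windows with AATT were those of Six2, Twist1 and Twist2, with 1 each, at 140, 191 and 90 bases before the start. The window of Twist2 is an example of AATT in front of a gene whose difference was not past the threshold. E-boxes (CANNTG on either strand, the general bHLH motif) were found in 66.2% of all windows and, among the 7, in those of Msx1 and Msx2 with 1 each.

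Six2 (Entrez gene 20472), which keeps kidney progenitors from differentiating and marks a part of the second heart field, was at 7.65 in Shox2-/- and 7.15 in wildtype right atria. The difference of 0.50, a 1.41-fold signal, placed it at rank 48 of all genes. The wildtype value was only 0.38 above the receptor level, and 13 receptor genes reached it, against 6 on the Shox2-/- array. Genes near this level had a slight upward shift on the Shox2-/- array, with a median of 0.07 in the bin of Six2, where 40 of 2123 genes were at or above 0.35, or 1.88%. With the trend removed the Six2 difference was 0.46. Other measured members of the family differed less. Six6 had a difference of 0.30, Six4 of 0.17, Six3 of 0.16 and Six5 of 0.03. Of 10 measured genes of this family (without Six2) and of the Eya and Dach families, which form 1 network in many organs, none was past a threshold, and the median was 0.07. Eya3 was the lowest of them, with 9.75 in Shox2-/- and 9.93 in wildtype right atria, a difference of -0.18.

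Twist1 (Entrez gene 22160), a bHLH factor that drives cells out of epithelia and keeps cushion mesenchyme dividing, was at 9.11 in Shox2-/- and 8.69 in wildtype right atria. The difference of 0.42, a 1.34-fold signal, stood at rank 104 of all genes, and 5 of the 2122 genes in its bin of mean level, Twist1 included, had a difference as high. Twist2 (Entrez gene 13345), its close relative in dermis, was at 8.73 in Shox2-/- and 8.51 in wildtype right atria. The Twist2 difference of 0.21 was below the threshold and 0.20 smaller than that of Twist1. Scx (Entrez gene 20289), the bHLH factor of tendons that is also made in valve precursors, was at 8.34 in Shox2-/- and 7.99 in wildtype right atria. Its difference of 0.35, a 1.28-fold signal, is the value closest to the threshold among the 5 genes counted as higher, and it fell just short of 0.35 when each array was centred on its own median. Scx overlaps the gene Bop1, which acts in ribosome assembly and was at 8.90 in Shox2-/- and 8.92 in wildtype right atria.

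Meox1 (Entrez gene 17285), a homeobox factor of somites and of activated fibroblasts, had the smallest difference of the 9. It was at 7.33 in Shox2-/- and 7.15 in wildtype right atria, a difference of 0.18, and 476 of the 2123 genes in its bin of mean level, Meox1 included, had a difference as high. It was above the 95th percentile of receptor genes on both arrays but below their 99th percentile, which was 7.37 on the Shox2-/- array and 7.15 on the wildtype array. Its paralog Meox2, known from muscle and vessels, was at 7.20 in Shox2-/- and 7.13 in wildtype right atria, a difference of 0.07. In each of the 3 pairs of paralogs within the 9, Prrx, Msx and Twist, 1 gene was past the threshold and the other was not, but without replicates the size of these gaps cannot be set against an error.

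**Figure D2:**
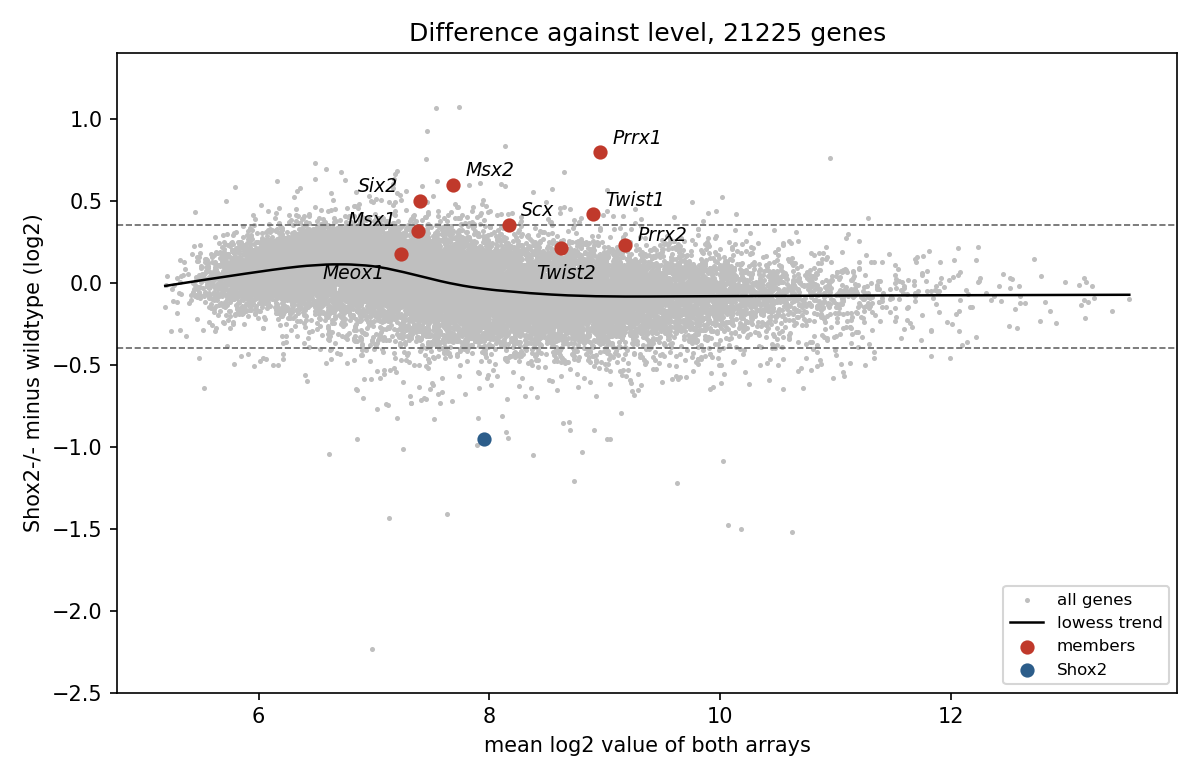
Difference between the arrays (vertical axis, log2, Shox2-/- minus wildtype) against the mean of both arrays (horizontal axis, log2) for all genes (grey), the 9 mesenchymal factors (red) and Shox2 (blue), with the lowess trend (line) and the thresholds of 0.35 and -0.4 (dashed). Xist (-3.53) lies below the axis, and the 9 factors all lie above the trend.

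The trend moved the 9 values unequally, because it lies below 0 at the levels of the Prrx and Twist genes and above 0 at those of Six2, Msx1 and Meox1. With the trend removed Prrx1 was at 0.88, Msx2 at 0.60, Twist1 at 0.50, Six2 at 0.46 and Scx at 0.41, which were again the 5 genes past the threshold. Prrx2 was at 0.31, Twist2 at 0.29, Msx1 at 0.27 and Meox1 at 0.11. The median of all 9 was 0.41, whereas 0.952% of all genes were at or above 0.35 and 50.6% above 0. Quantile normalization of the 2 columns repeated here gave 0.88 for Prrx1 and 0.12 for Meox1 as the extremes.

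**Figure D3:**
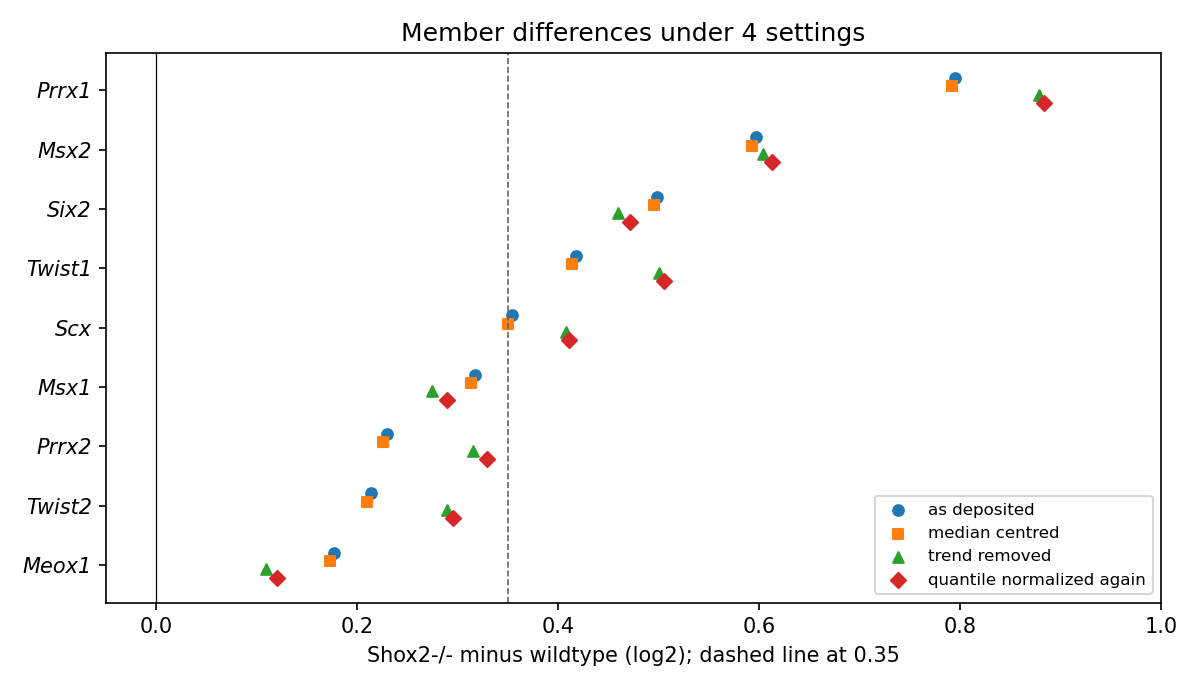
Difference of each of the 9 genes (horizontal axis, log2, Shox2-/- minus wildtype) as deposited, with each array centred on its median, with the lowess trend removed and after quantile normalization was repeated, where the dashed line marks 0.35. Each gene has a difference above 0 in the 4 settings, and Scx is the gene that lies at the line.

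Other genes of the same classes were mostly nearer to 0. Of 42 measured relatives in the classes of Prrx1, Msx2, Six2 and Twist1, without Shox2, 3 were at or above 0.35 and 0 at or below -0.4. Their median was 0.14. After removal of the trend it was 0.09, and Dlx2 (0.34) was no longer past the threshold, which left 2. The 3 were Alx4, a factor of limb and skull mesenchyme (7.71 in Shox2-/- and 7.21 in wildtype right atria), Gsc, a factor of the organizer and of facial mesenchyme (7.76 in Shox2-/- and 7.35 in wildtype), and Dlx2, a factor of the pharyngeal arches (7.60 in Shox2-/- and 7.22 in wildtype). Of these relatives 16 had a difference at least as high as that of Meox1. Among the bHLH relatives, none of 11 was past a threshold. The pancreas factor Ptf1a had the largest difference with 0.31, below the receptor level on both arrays, and the heart factors Hand1 and Hand2 had 0.29 and 0.10. Hand2 was at 8.93 in Shox2-/- and 8.83 in wildtype right atria. The E proteins and Id proteins, which pair with Twist-type factors or keep their partners away, had 0 of 7 past a threshold and a median of -0.07, which was 0.02 with the trend removed. Id1, a Bmp target, was at 9.32 in Shox2-/- and 9.03 in wildtype right atria, a difference of 0.30 that was 0.38 and past the threshold with the trend removed, and Tcf12 was the lowest with -0.17.

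Other regulators of mesenchyme were divided in direction. Among 10 factors of epithelial to mesenchymal transition, 0 were past a threshold, 6 had a difference below 0, and the median was -0.03. With the trend removed the median was 0.02, and 7 of the 10 lay above 0. Zeb2 was at 9.16 in Shox2-/- and 9.47 in wildtype right atria, a difference of -0.31, and Sox9, a factor of cartilage and cushions, was at 8.89 in Shox2-/- and 9.15 in wildtype right atria, a difference of -0.27. The 10 somite and sclerotome factors all had a difference above 0, but none was past the threshold. With the trend removed 6 of the 10 lay above 0, and the median of 0.16 became 0.07. Pax1 and Pax9 were the highest of them, with 0.25 each. Of 20 products and surface markers of mesenchyme, 1 was past a threshold. This was Tnc, the matrix protein tenascin C, with 9.30 in Shox2-/- and 8.73 in wildtype right atria, a difference of 0.57. The fibrillar collagen genes Col1a1 (0.25), Col1a2 (0.10) and Col3a1 (0.10) and the receptor genes Pdgfra (0.21) and Pdgfrb (0.19) lay below the threshold, while the matrix gene Vcan (-0.39) and the mesenchymal factor Osr1 (-0.29) had the lowest differences. Tnmd, a tendon gene that Scx is known to activate, was under the receptor level on both arrays, with 6.40 in Shox2-/- and 6.49 in wildtype right atria.

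Markers of tissues from which mesenchyme could enter the samples also differed between the pools. The mean over 14 measured markers of face and limb mesenchyme was 7.39 in Shox2-/- and 7.17 in wildtype right atria. All 14 had a difference above 0, their differences had a median of 0.23 (0.15 after removal of the trend), and Alx4 and Dlx2, already counted among the relatives, were past the threshold. After removal of the trend 12 of the 14 lay above 0, and Alx4 was the 1 past it. Tbx15 and Hoxd12 of this list were under the receptor level on both arrays. In wildtype right atria Pax9, Lhx8 and Hoxd13 were only 0.02, 0.08 and 0.20 above it. The receptor level was itself higher on the Shox2-/- array (6.97) than on the wildtype array (6.77), so background was higher there too. Over 8 measured neural crest markers the mean was 8.45 in Shox2-/- and 8.21 in wildtype right atria. Crabp1 (0.76), Tfap2b (0.63) and Tfap2a (0.47) were past the threshold, whereas Sox10, a defining factor of crest and glia, was at 7.61 in both. On the wildtype array Tfap2b (6.86) and Tfap2a (6.93) were only 0.08 and 0.15 above the receptor level. The median difference was 0.11, and 3 of the 8 lay below 0, with Ednrb the lowest at -0.13. The part of these markers in the values of the 9 factors was not tested.

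Markers of the mesenchyme of lung bud and dorsal mesocardium were in part lower in Shox2-/- right atria. The 9 markers had a mean of 8.05 in Shox2-/- and 8.35 in wildtype right atria and a median difference of -0.29, or -0.20 with the trend removed. Foxf1 (-0.96), Tbx4 (-0.91), the hedgehog receptor gene Ptch1 (-0.45) and Wnt2 (-0.44) were past the lower threshold, and 0 were past the upper one. Ptch1 (-0.36) and Wnt2 (-0.38) were no longer past it with the trend removed. The other direction was seen for 3 of the 9, namely Nkx2-3 (0.32), Nkx3-2 (0.14) and Barx1 (0.03). Among 10 epicardial markers the median was 0.15 and Krt19 (0.45) was past the threshold, with Wt1 at 9.58 in Shox2-/- and 9.40 in wildtype right atria. The 9 endocardial and endothelial markers had a median of 0.06 and the 6 smooth muscle markers one of 0.10, with none past a threshold, and the largest of either sign were Npr3 (0.18) and Emcn (-0.17) among endocardial markers and Myh11 (-0.34) and Tagln (0.21) in the smooth muscle list. Of 10 outflow tract and second heart field markers, Wnt5a (0.37) was past the upper and Isl1 (-0.42) past the lower threshold. Isl1 does not mark the outflow tract alone. By in situ hybridization the study found it missing from the sinoatrial node of Shox2-/- hearts but retained in their outflow tract. In 14 markers of atrial muscle the median was 0.04, and Ttn (0.43) was the 1 past a threshold. The medians without the trend were 0.18 for epicardium, 0.14 for endocardium, 0.18 for smooth muscle, 0.12 for the outflow tract and 0.11 for atrial muscle, where Nkx2-5 (0.35) was then past the threshold too. The part of these tissues in the values of the 9 factors was not tested either.

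**Figure D4:**
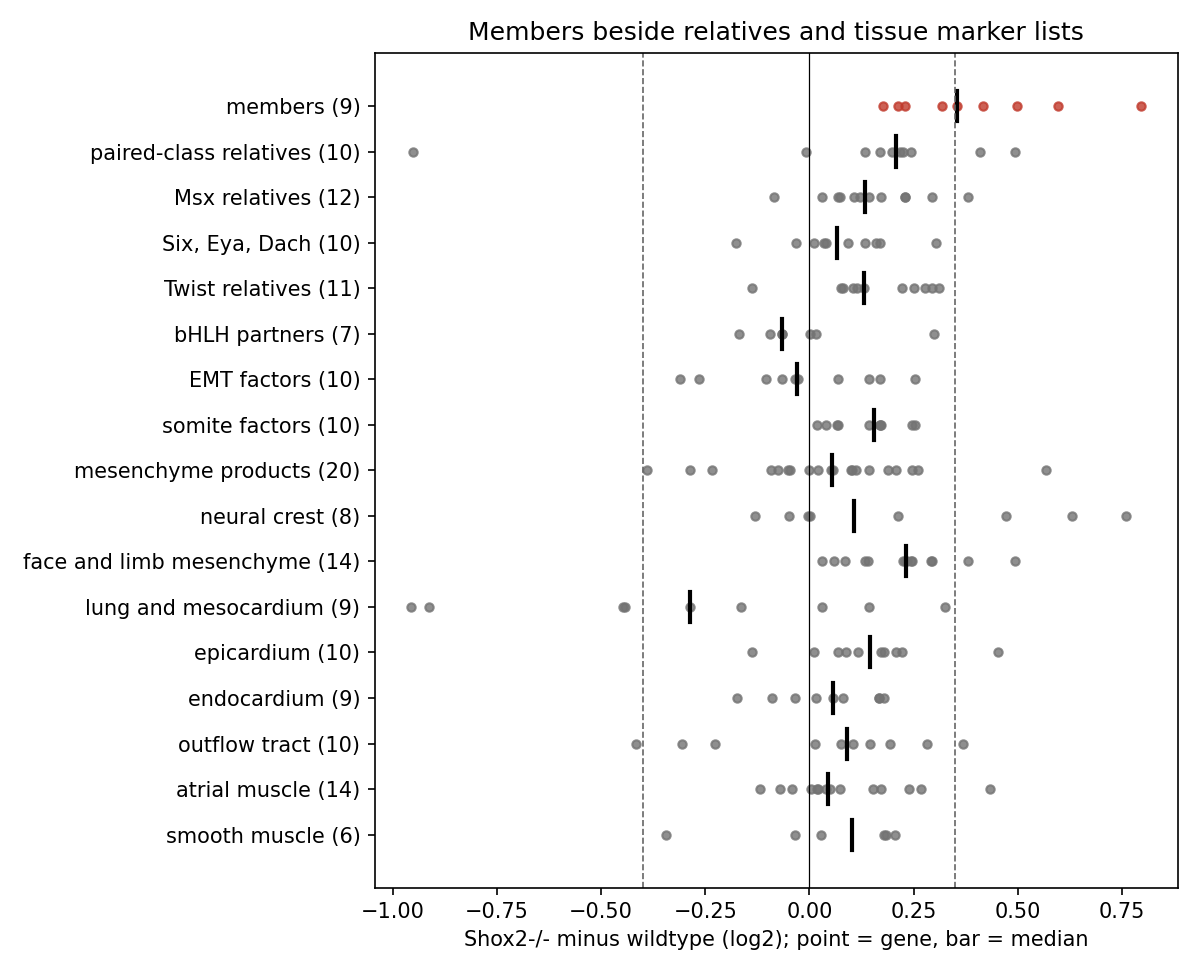
Difference of each measured gene (points, horizontal axis, log2, Shox2-/- minus wildtype) in the 9 mesenchymal factors (red) and in lists of relatives and tissue markers (grey), with the number measured in parentheses, list medians as black bars and the thresholds of 0.35 and -0.4 dashed. Medians run between -0.29 for lung and mesocardium markers and 0.35 for the 9 factors.

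The genes on either side of the 9 on their chromosomes were not past a threshold. These 37 neighbours are the 2 nearest measured genes on each side of the 9 genes and Bop1. Their median was 0.03, and 20 of the 37 lay above 0. The extremes were Sptlc1 near Msx2 (-0.19) and Mettl11b near Prrx1 (0.26). Mettl11b and the Msx2 neighbours Ror2 (0.26) and Drd1 (0.25) had larger differences than Prrx2, Twist2 and Meox1. Six3, which lies beside Six2, was at 7.30 in Shox2-/- and 7.14 in wildtype right atria. The 9 genes lie on 8 chromosomes, with Prrx1 and Twist2 on chromosome 1.

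For the 3 genes with the largest difference, the genes with the most similar pair of values were looked up, where likeness is the Euclidean distance over the 2 arrays. With 2 arrays this describes similar values and no shared control. Nearest to Prrx1 were Tnc at a distance of 0.18, Kctd12 (0.27), Bnip3 (0.27), Twist1 (0.28) and Lhfp (0.33). Thus 1 of the 5 belongs to the 9 factors, but none of the 5 had a difference as large as that of Prrx1. Nearest to Msx2 were Ccdc166 (0.11), Fthl17a (0.14), the relaxin family receptor gene Rxfp2 (0.16), the oxytocin gene Oxt (0.17) and Nptxr (0.17). Nearest to Six2 were Sostdc1, an antagonist of Bmp and Wnt signals (0.07), Alx4 (0.08), Dlx2 (0.08), Zfp970 (0.09) and the muscarinic receptor gene Chrm1 (0.10).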

How the data were processed

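Gene expression in right atria of Shox2-/- and wildtype embryos was measured with GeneChip Mouse Gene 1.0 ST arrays, 1 array and 1 RNA pool per genotype. In JMP Genomics 4.0 the authors took logs of the perfect-match probe values, applied quantile normalization and then log-linear models, and a custom CDF (version 14) defined the genes by Entrez identifier. The deposited values are log2 values, 1 per gene and array. The log base was read from their range of 5.09 to 13.6 and from the ratios used in the study. The build of the genome and any background correction were not given in the sources used here. No probe-level P was computed.

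Symbols came from the platform annotation, updated through Entrez identifiers with RefSeq annotation of GRCm38.p6. Rows without a symbol numbered 986 and were counted but not named. No 2 rows shared a symbol. Promoter windows came from RefSeq. Proteins were not analysed here.

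The 9 genes and the 16 lists beside them were chosen with earlier results of these data known. Named are the 9 genes, Shox2, list members past a threshold or else the 2 with the largest difference, paralogs of the 9, and the 5 protein-coding genes nearest to each of the 3 most raised. Some further list members, neighbours, the 4 genes above Prrx1, Xist and Alb were named after their values were seen. The lowess trend had a span of 0.3 and 3 iterations. The precision is limited by the number of arrays. Alternatives were centring, removal of the trend, repeated quantile normalization, a filter at the receptor level, and other thresholds. Python 3.11.15, numpy 2.4.6, pandas 2.3.3, statsmodels 0.14.6 and matplotlib 3.10.9 were used.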

Additional observations from a re-analysis of the deposited data

How the results depend on the processing

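No paired analysis was possible because each genotype had 1 array, and for the same reason no array could be left out. The mean of rows that share a symbol was not run, since no rows shared one. After removal of the trend or repeated quantile normalization, 18 of 18 values of the 9 genes kept their direction and their side of the threshold. Centring moved every difference by -0.0038 alike, which put Scx at 0.349969, just under 0.35. The filter at the receptor level left the 9 values as they were by its construction. Scx is also the median of the 9, which was therefore 0.349969 under that centring. The count of 5 genes past 0.35 was between 4 and 5 under centring, removal of the trend, repeated quantile normalization, the filter at the receptor level and a threshold of 0.4, and it was 0 at a 2-fold change. Over all genes, the 240 higher genes were 132 at a threshold of 0.4 and 2 at a 2-fold change, and the 377 lower genes were 14 at a 2-fold change. Of the 48 list medians under an alternative, 2 changed sign, those of the bHLH partners (0.02) and of the factors of epithelial to mesenchymal transition (0.02), with the trend removed. Before its removal these medians were -0.07 and -0.03, and the subtracted trend lies below 0 at the mean level of either list. Calls lost or gained in single lists are given beside them. With the 99th percentile of receptor genes in place of the 95th, 8 of the 9 genes were above it on both arrays, Meox1 being the exception and Six2 being above it by 0.0022 on the wildtype array.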
